A study of Mus musculus with 80 samples.

Results

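The germ line genes Dazl, Ddx4, Mael, Sycp1, Sycp3, Stra8, Tex101, Asz1, Slc25a31 and Piwil2 (10 genes) were followed while mouse embryonic stem cells (ESCs) left serum for 2i medium. They were chosen by name, as genes that DNA methylation normally keeps silent outside germ cells, by a rule that uses no measured value. Earlier results of these data were known when they were chosen, so counts of members against all genes are descriptions. All 10 symbols had a row of their own among the 25965 genes of the RNA table, and 166 of the 1026637 H3K9me2 bins of 2 kb overlapped them. The cells were E14, a wild-type mouse ESC line, and every group shared that genotype and the cytokine LIF. The RNA groups were serum, and 2i for 6 h, 24 h and 72 h, with 3 libraries each (12 in all). The serum medium was DMEM with fetal calf serum, and 2i was serum-free N2B27 with the MEK inhibitor PD0325901 and the GSK3 inhibitor CHIR99021. The H3K9me2 groups were serum, 24 h 2i and long-term (LT) 2i, with 2 antibody-bound libraries and 1 input library each. The study calls the replicates of its expression time course biological, but neither it nor the labels say whether they were separate cultures of this 1 line, and for the H3K9me2 libraries nothing is said. The p-values therefore measure the spread between these libraries only, which for H3K9me2 may be technical.

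In the germ line these genes serve meiosis, the pairing of chromosomes, the control of germ cell RNA and the piRNA pathway, which silences transposons. In most other cells their CG-rich promoters carry DNA methylation, and a polycomb complex called PRC1.6, which holds E2F6 and the pair MGA and MAX, can bind at E2F-like and E-box letters near their starts. H3K9me2, a histone mark laid down by the methylases EHMT1 and EHMT2, is a further mark of silent chromatin, and culture in 2i is known for low DNA methylation.

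The promoter letters of the genes are shown first, because they divide the genes into a set with both motifs and a set with neither. RefSeq promoters (GRCm38.p6, 300 bases, 250 before to 50 after the start) were at hand for 9 of the 10, Piwil2 being the one without. The E-box CACGTG, which reads the same on both strands, stood in 5 of the 9, namely Ddx4, Mael, Sycp1, Sycp3 and Slc25a31, against 7.15% of all 32851 promoters. The E2F core TCCCGC, searched on both strands (GCGGGA on the other) and nowhere overlapping the E-box in these genes, stood in the same 5, against 19.98% of all promoters, and both together were in 1.99% of them. Dazl, Stra8, Tex101 and Asz1 had neither in this window, which for Stra8 lies inside the gene as the RNA table bounds it. Between 10 (Stra8) and 38 (Ddx4) CG pairs were counted per promoter, with a median of 21 over the 9 genes and of 7 over all promoters. The bases 250 to 51 before the RefSeq start follow for 4 genes with the letters and for Dazl without them, 5′ to 3′ along the gene, with the E-box and E2F core in capitals. They are Mael at chr1:166238795-166238994 (minus strand), Sycp1 at chr3:102936151-102936350 (minus), Sycp3 at chr10:88459337-88459536 (plus), Slc25a31 at chr3:40708621-40708820 (plus) and Dazl at chr17:50293671-50293870 (minus).
Mael: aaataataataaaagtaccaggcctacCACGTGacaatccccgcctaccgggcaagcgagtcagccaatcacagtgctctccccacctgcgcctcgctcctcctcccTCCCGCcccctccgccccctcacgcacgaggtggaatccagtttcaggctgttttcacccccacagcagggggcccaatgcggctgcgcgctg
Sycp1: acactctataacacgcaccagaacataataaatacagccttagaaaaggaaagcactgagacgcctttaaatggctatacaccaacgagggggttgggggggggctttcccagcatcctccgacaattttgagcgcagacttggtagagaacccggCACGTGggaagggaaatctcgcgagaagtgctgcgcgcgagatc
Sycp3: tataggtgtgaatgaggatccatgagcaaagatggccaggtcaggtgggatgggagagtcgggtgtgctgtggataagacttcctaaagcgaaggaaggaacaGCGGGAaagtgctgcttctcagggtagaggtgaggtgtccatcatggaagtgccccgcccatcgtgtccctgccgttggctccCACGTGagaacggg
Slc25a31: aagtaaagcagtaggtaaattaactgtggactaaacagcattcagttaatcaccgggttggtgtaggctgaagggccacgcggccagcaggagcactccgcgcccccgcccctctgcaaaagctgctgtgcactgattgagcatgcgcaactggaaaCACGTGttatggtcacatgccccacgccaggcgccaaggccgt
Dazl: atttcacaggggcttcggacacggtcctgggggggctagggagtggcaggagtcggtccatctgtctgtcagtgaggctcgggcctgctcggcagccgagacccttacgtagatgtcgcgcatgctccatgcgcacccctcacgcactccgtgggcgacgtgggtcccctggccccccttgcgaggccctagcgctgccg
A match of letters is a description and not a bound site. In Sycp1 and Slc25a31 the E2F core lies downstream of the stretch shown. A further E-box of Sycp3 and a further E2F core of Mael also lie downstream of theirs.

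RNA values are the deposited log2 levels per gene, corrected for length and depth and set to an equal 75th percentile of 2.51 in every library. Whole reads could be recovered from them for 98.6% of the rows (each within 0.05 of a whole number), and relative depth, read from the value of a gene without reads, spanned -0.29 to 0.27 on the log2 scale. In serum the 8 ESC markers summed to linear levels of 1448 to 1789, against 7.89 to 9.92 for 8 fibroblast markers, 13.7 to 15.7 for 8 primitive endoderm markers and 6.76 to 7.83 for 8 trophoblast markers. The 8 markers of two-cell-like cells, a rare ESC state, summed to 40.8 to 64.6 in serum and 42.5 to 57.9 at 6 h. Their sum was 61.5 to 97.2 at 24 h and 47.3 to 65.9 at 72 h. Of the 7 tested among them, 2 rose at 24 h, against 34.2% of all tested genes, and 1 (Tcstv1, 0.96) at 72 h, against 25.7%. Trophoblast markers summed to 2.21 to 2.97 at 24 h and stood at 5.50 to 6.34 at 72 h. At 24 h, 5 of 6 tested trophoblast genes fell, against 29.1% of all tested genes. None of the 6 reached the level needed for testing, given below, in any 24 h library. A low value at 24 h was thus built into their selection. Primitive endoderm markers spanned 8.39 to 13.7 at 24 h and 13.0 to 19.9 at 72 h, and fibroblast markers 4.81 to 7.89 and 4.58 to 5.03. The part of such cells in the results below was not tested. In every 2i group the ESC markers stayed far above the other lists, with a lowest sum of 1389, while Lum (fibroblast) and Prl3d1 (trophoblast) had no read in any library. A gene entered the test if its level was 0 or more on the log2 scale in at least 3 libraries, which 9 of the 10 members did. Changes were tested by limma over 12306 genes with Benjamini-Hochberg adjustment, and "rose" or "fell" is written for an adjusted p under 0.05.

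Stra8 (chr6:34920163-34939342, plus strand), the retinoic acid induced gene that starts meiosis, rose against serum at all 3 times, and again from 24 h to 72 h. Its log2 levels were 1.58, 1.32 and 1.47 in serum, 3.03, 2.72 and 2.91 at 6 h, 4.51, 4.48 and 4.07 at 24 h, and 6.16, 6.24 and 6.10 at 72 h. No group overlapped with the next, and the spread within the 72 h libraries was small (SD 0.07, n = 3). In reads, 70 to 114 per library in serum became 2370 to 2957 at 72 h. The change against serum was 1.43 at 6 h (SE 0.14 and limma adjusted p = 2.95e-05), 2.90 at 24 h (SE 0.14 and limma adjusted p = 5.91e-08) and 4.71 at 72 h (SE 0.14 and limma adjusted p = 1.15e-09), the last a 26.2-fold rise with only 27 of the tested genes rising further. Since the RNA comes from bulk cells, more expressing cells and more RNA per cell cannot be told apart here or for the genes below.

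Dazl (chr17:50279394-50293599, minus strand), an RNA-binding regulator of translation in germ cells, rose late. Its log2 levels were 1.15, 1.14 and 0.81 in serum, 1.93, 1.76 and 1.62 at 6 h, 2.03, 1.35 and 0.82 at 24 h, and 3.33, 3.72 and 3.28 at 72 h. The 72 h libraries stood above all others, whereas the 24 h libraries reached down into the serum range and up past the 6 h libraries. At 72 h the change against serum was 2.41 on the log2 scale (SE 0.25 and limma adjusted p = 1.30e-05), or 5.31-fold. The value of 0.73 at 6 h missed the threshold (SE 0.25 and limma adjusted p = 0.077) but passed it with the replicate number as a block (limma adjusted p = 0.025), with all 6 h libraries above all serum libraries. The 0.37 at 24 h also missed it (limma adjusted p = 0.220). With a library left out, the 24 h change ranged from 0.055 to 0.66, the latter without 24 h replicate 3 (limma adjusted p = 0.014).

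Sycp3 (chr10:88459569-88473236, plus strand), of the axial elements of meiotic chromosomes, peaked at 24 h. Levels of 3.39, 3.22 and 2.88 in serum and 4.40, 4.11 and 3.93 at 6 h were followed by 6.83, 5.99 and 5.43 at 24 h and 4.67, 5.23 and 4.49 at 72 h, all on the log2 scale. No library at 24 h was below any library of another group, though the 24 h libraries lay widely apart, with 1200 to 2433 reads each. The rise over serum was 2.92 at 24 h (SE 0.31 and limma adjusted p = 1.66e-05, 7.58-fold) and 1.63 at 72 h (SE 0.31 and limma adjusted p = 0.00106, 3.10-fold). The 72 h level was 1.29 below that of 24 h (log2 change -1.29, SE 0.31 and limma adjusted p = 0.00961). At 6 h the change of 0.98 missed the threshold (limma adjusted p = 0.054) and passed it with the replicate block (limma adjusted p = 0.012), with no overlap between 6 h and serum. The whole of Sycp3 (13668 bases) lies inside Chpt1, a phospholipid synthesis gene on the other strand, and the library kit does not mark strand, so reads from bases that both transcribe cannot be assigned to either gene. Chpt1 itself had mean log2 levels of 0.44 in serum and 0.67 at 6 h, then 1.96 at 24 h, followed by 1.72 at 72 h, so its mean too was highest at 24 h. It rose by 1.52 at 24 h (SE 0.28 and limma adjusted p = 0.000758) and by 1.28 at 72 h (SE 0.28 and limma adjusted p = 0.00272), and its part in the Sycp3 values was not tested.

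Piwil2, Ddx4 and Sycp1 were called lower in 2i at 1 time or more. Piwil2 (chr14:70372480-70429094, minus), a Piwi protein of the piRNA pathway, had log2 levels of 1.07, 1.09 and 1.03 in serum and 0.88, 0.92 and 0.87 at 6 h, then -0.21, -0.44 and -0.12 at 24 h and 0.53, 0.19 and 0.40 at 72 h. Each 2i group was wholly below serum, with the lowest values at 24 h. Piwil2 fell by 1.32 at 24 h (SE 0.13 and limma adjusted p = 1.19e-05) and fell by 0.69 at 72 h (SE 0.13 and limma adjusted p = 0.00121), and from 24 h to 72 h it rose by 0.63 (limma adjusted p = 0.00478). Ddx4 (chr13:112598333-112652310, minus), the germ granule RNA helicase also known as Vasa, first rose and then fell below serum. Its log2 levels were 2.85, 2.99 and 2.72 in serum, 3.48, 3.51 and 3.31 at 6 h, 2.40, 2.26 and 2.33 at 24 h, and 2.46, 2.50 and 2.39 at 72 h. The 6 h libraries were all above serum and the later libraries all below it, with changes of 0.58 (SE 0.10 and limma adjusted p = 0.00243), -0.52 (limma adjusted p = 0.00106) and -0.41 (limma adjusted p = 0.00577). Without a trend on gene span, removed from each library, the Ddx4 falls missed the threshold, at -0.20 (limma adjusted p = 0.219) for 24 h and -0.29 (limma adjusted p = 0.095) for 72 h. Sycp1 (chr3:102818499-102936100, minus), which forms the transverse filaments between paired chromosomes, spanned 0.26 to 0.72 in serum, 1.00 to 1.17 at 6 h, -0.72 to 0.61 at 24 h and 0.60 to 1.01 at 72 h. It was called lower at 24 h by a narrow margin (log2 change -0.71, SE 0.29 and limma adjusted p = 0.049), with replicate 1 inside the serum range, and the adjusted p passed 0.05 when any of 10 single libraries was left out, up to 0.159 without 24 h replicate 3. With the span trend removed the Sycp1 change at 24 h was -0.22 (limma adjusted p = 0.619), so that call too was lost.

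Mael and Slc25a31 did not pass the test against serum in the fit without a block, and Tex101 and Asz1 had few reads. Mael (chr1:166201385-166238744, minus), a piRNA factor of the germ granule, had the highest serum mean of the 10 on the length-corrected scale, 3.23 ± 0.26 (SD, n = 3), and its changes of 0.41, 0.07 and -0.43 at 6 h, 24 h and 72 h all missed the threshold (limma adjusted p = 0.206, 0.748 and 0.078). Mael was called lower at 72 h without serum replicate 3 (-0.58), 72 h replicate 2 (-0.57) or 24 h replicate 3 (limma adjusted p = 0.037, 0.038 and 0.047). With the replicate block Mael was also called lower at 72 h (limma adjusted p = 0.019). Slc25a31 (chr3:40708855-40725593, plus), an ADP/ATP carrier of mitochondria in male germ cells, stood between 0.04 and 0.15 in serum with 26 to 40 reads per library. It had 0.60 to 0.94 at 6 h, -1.08 to 0.12 at 24 h and 0.39 to 0.73 at 72 h, and no difference from serum passed the test. With the replicate block it was called higher at 6 h (0.70, limma adjusted p = 0.039) and lower at 24 h (-0.55, limma adjusted p = 0.039). At 24 h Slc25a31 was also called lower with the span trend removed (-0.64, limma adjusted p = 0.036) and without 24 h replicate 1 (-0.83, limma adjusted p = 0.00787). Its 24 h change ranged from -0.83 to -0.23 with a library left out. At 72 h it was called higher with only the libraries compared (0.46, limma adjusted p = 0.039) and without 24 h replicate 3 (limma adjusted p = 0.035). Tex101 (chr7:24668012-24672050, minus), a surface glycoprotein of testicular germ cells, had 8 to 12 reads in serum, 21 to 31 at 6 h, 8 to 19 at 24 h and 5 to 13 at 72 h. It entered the test only through its 3 values at 6 h and 1 at 24 h, so a difference at 6 h was built into its selection, and the change of 1.47 at 6 h (SE 0.42 and limma adjusted p = 0.036) lost its call when any of the 6 serum and 6 h libraries, or 72 h replicate 1, was left out. Asz1 (chr6:18050964-18109061, minus), a germ granule scaffold of the piRNA pathway, was too low to be tested. It had 3, 0 and 0 reads in serum, 2, 2 and 0 at 6 h, none at 24 h and 6, 3 and 2 at 72 h.

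**Figure D1:**
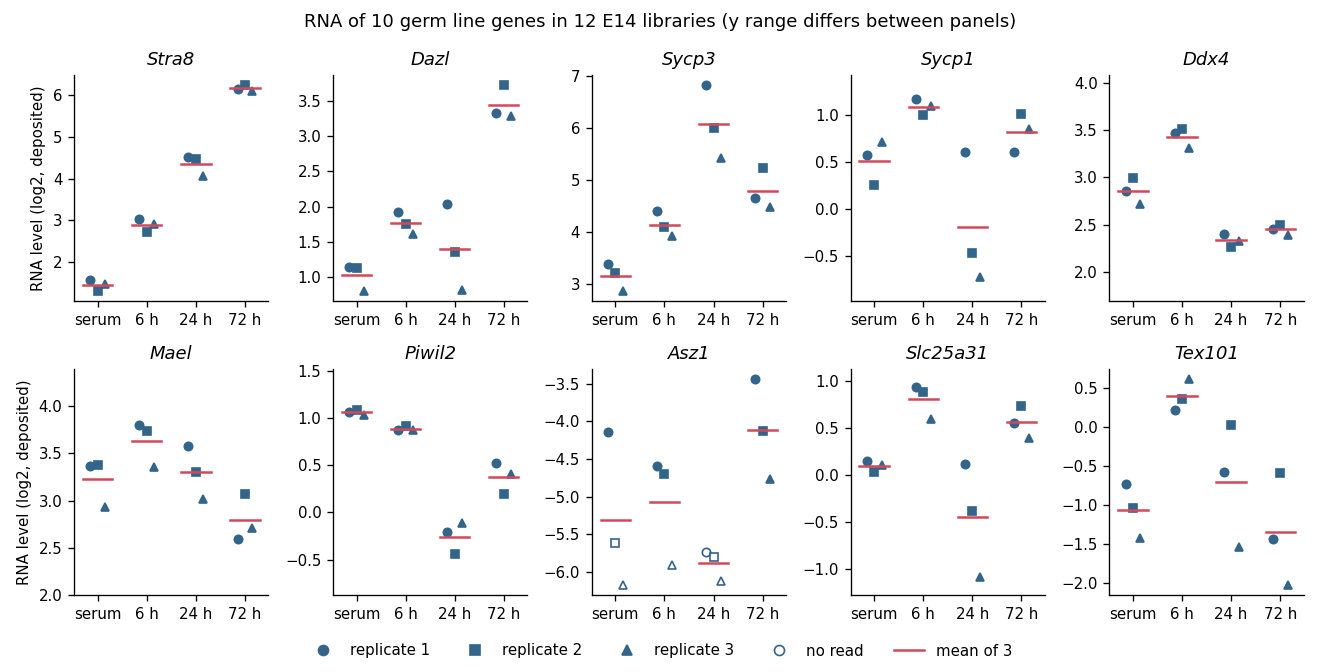
Deposited log2 RNA level (y axis) of the 10 genes in the 12 libraries, by time in 2i (x axis), with replicates as symbols, the mean of 3 as a red line and open symbols for libraries without a read. Stra8 climbs from 1.45 to 6.17 between serum and 72 h, Sycp3 is highest at 24 h and Piwil2 is lowest there.

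Counted over the 9 tested members, 3 rose and 0 fell at 6 h, against 9.13% of all tested genes called higher and 6.48% called lower. The 3 were Stra8, Ddx4 and Tex101, the last tested only through its own high values. In 8 of the 9 the 6 h group did not overlap with serum, against 44.4% of all tested genes in either direction. Of these, 7 lay above serum and 1 (Piwil2) below it. Tex101 is among the 7, and its separation was built into its selection, so this count is a description only. At 24 h, 2 rose (Stra8 and Sycp3) against a background of 34.2%, and 3 fell (Ddx4, Sycp1 and Piwil2) against 29.1%, and 4 of the 9 had groups without overlap, against 64.7% of all tested genes. At 72 h, 3 rose (Stra8, Dazl and Sycp3) against 25.7%, and 2 fell (Ddx4 and Piwil2) against 26.5%, and 6 had groups without overlap, against 63.5%. The shares called at 24 h and 72 h lie near the background. The members' median log2 change was 0.70, 0.07 and 0.31 at the 3 times, beside 0.01, 0.11 and -0.01 over all tested genes. The count at 6 h rested on libraries outside that comparison, since it was 7 with only the 6 libraries compared in the fit (where 29.1% of all tested genes were called), 7 without 24 h replicate 1 (17.4% of all tested genes) and 6 without 24 h replicate 3 (19.8%). With the replicate block it was 6, the other 3 being Dazl, Sycp3 and Slc25a31, against 20.9% of all tested genes called in either direction. At 24 h, replicate 1 had the highest level of the 3 libraries for Dazl, Ddx4, Mael, Sycp1, Sycp3, Stra8 and Slc25a31.

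Between 24 h and 72 h, 5 members rose, against 15.8% of all tested genes, and 1 fell, against 15.7%. In 5 of the 9 the 2 groups did not overlap, against 33.5%. The risers were Dazl (2.04, SE 0.25 and limma adjusted p = 0.000187), Stra8 (1.81, SE 0.14 and limma adjusted p = 5.93e-06), Sycp1 (1.01, SE 0.29 and limma adjusted p = 0.021), Slc25a31 (1.01, SE 0.25 and limma adjusted p = 0.011) and Piwil2, and the one that fell was Sycp3. With only the 24 h and 72 h libraries in the fit, 2 calls were left, those of Dazl and Stra8, and the Sycp1 call was lost without 24 h replicate 2 (limma adjusted p = 0.083) or 72 h replicate 3 (0.055). It was also lost with the span trend removed, where the Sycp1 change was 0.65 (limma adjusted p = 0.187). Mael, at -0.51, missed the threshold (limma adjusted p = 0.063) and was called lower with the replicate block (limma adjusted p = 0.014). By 72 h the order of mean levels was Stra8 (6.17), Sycp3 (4.79), Dazl (3.44), Mael (2.79) and Ddx4 (2.45), then Sycp1, Slc25a31, Piwil2, Tex101 and Asz1. Neighbours in that order overlapped in their libraries from Sycp1 down to Piwil2, whereas each of the upper 4 steps from Stra8 to Ddx4 was free of overlap.

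**Figure D2:**
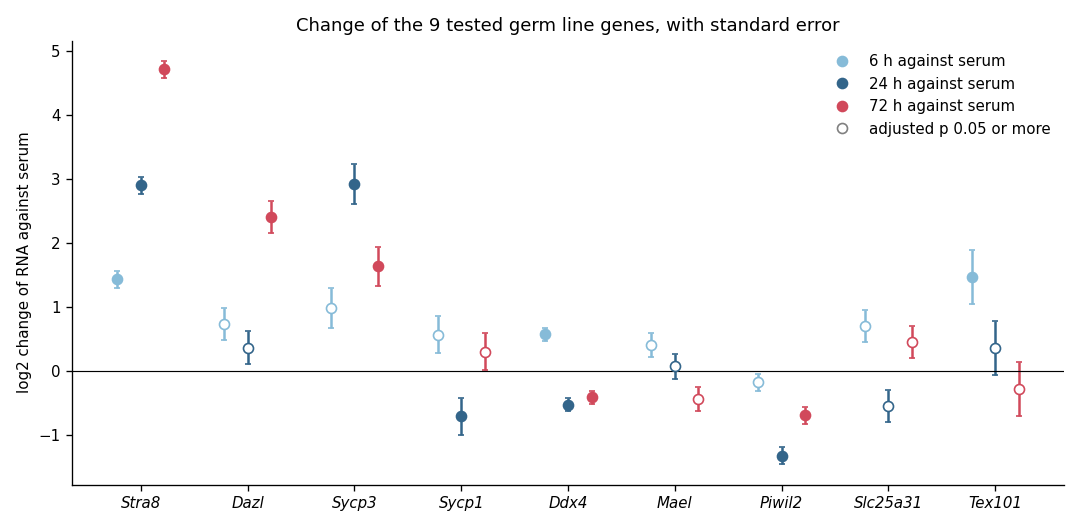
Log2 change of RNA against serum (y axis) for the 9 tested genes at 6 h, 24 h and 72 h, with the standard error of the limma fit as bars and open points where the adjusted p is 0.05 or more. Only Stra8 is called higher at all 3 times, and Ddx4 is called higher at 6 h and lower at 24 h and 72 h.

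Other germ line genes were read from lists by role, at 72 h, where 25.7% of all tested genes were called higher and 26.5% lower. Of 26 genes of meiotic chromosomes, 25 were in the table and 14 were tested, of which 8 rose and 0 fell, with a median of 0.65. Meiob, a single-strand DNA binding protein of meiotic recombination, was called higher (3.17, SE 0.43 and limma adjusted p = 9.96e-05), as were the meiotic cohesin Rec8 (2.59, SE 0.13 and limma adjusted p = 4.86e-08) and the chromosome axis protein Hormad2 (1.24, SE 0.23 and limma adjusted p = 0.000841). Meiob reached the filter level in the 3 libraries of 24 h alone and Hormad2 in the 9 of 2i alone, so both entered the test only through 2i libraries, and no count over the tested genes stands as support. Among 16 further piRNA and Tudor genes 7 were tested, and 3 rose while 1 fell. The risers, which all serve the making of piRNAs, were Fkbp6 (2.24, SE 0.17), Gpat2 (1.48, SE 0.13) and Pld6 (1.15, SE 0.26). In the list for germ cell specification and translation, 9 of 14 tested genes rose and 4 fell. Among the risers were the receptor Kit (2.54), the transcription factor Tfap2c (2.39) and the testis bromodomain gene Brdt (2.89), which reached the filter level only at 6 h and 72 h, so that a difference at 72 h was built into its selection. Several of these genes, such as Tfap2c and Kit, also act outside the germ line.

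Genes known to keep germ line genes silent were read as a further list. Of 24 PRC1.6 subunits, DNA methylases and other repressors, all tested, 2 rose and 10 fell at 72 h, against the 25.7% and 26.5% of all tested genes, and the median was -0.24 beside -0.01 for all genes. The de novo methylation genes fell furthest, with Dnmt3l at -5.65 (SE 0.13 and limma adjusted p = 2.76e-10), Dnmt3b at -4.19 (SE 0.13 and limma adjusted p = 1.50e-09) and Dnmt3a at -2.37 (SE 0.11 and limma adjusted p = 2.73e-08). At 24 h, 2 of the list rose and 15 fell, against 34.2% and 29.1% of all tested genes. Of 10 genes that carry retinoic acid or, like Stra8, respond to it, 6 were tested, and 3 rose while 2 fell at 72 h. Dhrs3, a retinaldehyde reductase, rose by 1.11 (SE 0.21) and had no serum library at the filter level, while the receptor Rarg changed by -2.08 (SE 0.12).

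Most of the nearest genes beside the members were too low to be tested, where 12306 of all 25965 genes were tested. The nearest gene on each side, at most 500 kb away, and any overlapping gene gave 21 neighbours. Of these, 13 were too low to be tested, and 4 of the other 8 were called at 72 h (3 higher and 1 lower). This share is near the background of 25.7% higher and 26.5% lower. Besides Chpt1 these were Wdr91, 9.29 kb from Stra8, which rose by 0.91 (SE 0.10 and limma adjusted p = 2.57e-05), Plcl2, 216 kb from Dazl, which rose by 1.94 (SE 0.18 and limma adjusted p = 5.48e-06), and Intu, 4.08 kb from Slc25a31, at -0.53 (SE 0.13 and limma adjusted p = 0.00610). The serum mean of Plcl2 (-0.54) lay below the filter level and its 2i means (0.76, 0.89 and 1.40) above it, so its rise may be built into its selection. Over the 12 libraries, the genes most like the mean of the centred members were Znrf2 (Pearson r = 0.98), Stk31 (0.95), Bmi1 (0.95), Sumf1 (0.93) and Cdc42ep3 (0.92). The members themselves had r between -0.23 (Piwil2) and 0.82 (Dazl) with that mean, which they share in.

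H3K9me2 was read as log2 of bound over input reads, each scaled to its library total, in the bins over each gene and in 3 bins around its start. Bound libraries held 14396552 to 19279328 reads in bins. No spike-in was named, so a loss everywhere at once would not show. The study itself reports a reduced global level of H3K9me2 in 2i, by western blot and immunofluorescence. With library totals, a gene called higher held a larger share of bound reads, which need not mean more of the mark per cell. Long-term 2i also changed the whole distribution. Over all 19978 tested gene bodies the median change of bound reads was -0.65 on the log2 scale in LT 2i, and over the 14214 tested starts it was -0.31. Member changes are therefore given beside this shift. At 24 h these medians were -0.04 and 0.02.

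Stra8 and Dazl had body H3K9me2 below the all-gene median in both serum libraries, as did Sycp1, Piwil2 and Sycp3, the last being lowest (-2.05 and -1.75). Stra8 and Dazl were called lower at the body in LT 2i, as were 59.1% of all gene bodies. The Stra8 body held 100 and 73 bound reads in the serum libraries, 30 and 58 at 24 h, and 18 and 26 in LT 2i. Its log2 ratio to input was -1.17 and -1.57 in serum, below the all-gene medians of -0.55 and -0.65, and -3.32 and -2.60 in LT 2i, so that both LT libraries were below both serum libraries. The fall in LT 2i was -1.77 (SE 0.28 and limma adjusted p = 4.07e-06), still -1.06 with the medians of all genes set equal (limma adjusted p = 0.00164). Dazl bodies held 78 and 72 reads in serum against 56 and 36 in LT 2i, a change of -0.56 (SE 0.21 and limma adjusted p = 0.021) that became 0.14 with equal medians (limma adjusted p = 0.560) and lost its call without either serum library or without LT 2i replicate 2. At the starts neither gene was called. Stra8 had 16 and 11 reads there in serum and 6 and 7 in LT 2i (limma adjusted p = 0.184), and Dazl had 18 and 16 against 26 and 6, so that its LT 2i libraries lay on both sides of serum.

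Mael, Sycp1 and Slc25a31 were called higher for H3K9me2 at the gene body in LT 2i on each scaling, none of which measures an absolute level. Of all gene bodies 9.19% were called higher with library totals and 35.5% with equal medians. Mael bodies held 337 and 346 bound reads in serum and 262 and 266 at 24 h, then 515 and 455 in LT 2i, and the log2 ratio to input went from -0.15 and -0.05 to 0.59 and 0.63. Its change of bound reads was 0.67 (SE 0.09 and limma adjusted p = 6.65e-07), or 1.32 above the all-gene median, and at its start the change was 0.89 (SE 0.19 and limma adjusted p = 4.98e-05). The Sycp1 body changed by 0.43 (SE 0.09 and limma adjusted p = 0.000308) and that of Slc25a31 by 0.42 (SE 0.13 and limma adjusted p = 0.00518), with 0.32 (limma adjusted p = 0.075) for the latter without serum replicate 1. Sycp3 was also called higher at its body (0.68, SE 0.28 and limma adjusted p = 0.033) and start (0.72, SE 0.29 and limma adjusted p = 0.037) from a low level of 37 and 44 body reads in serum and 61 and 55 in LT 2i. These bins belong to Chpt1 as well, and the body call was lost without serum replicate 1 (limma adjusted p = 0.185), without LT 2i replicate 2 (0.079) and over input (limma adjusted p = 0.203). The start call was lost without serum replicate 1, serum replicate 2 or LT 2i replicate 1 (limma adjusted p = 0.088, 0.191 and 0.252). The Ddx4 body changed by -0.02 (limma adjusted p = 0.857), or by 0.69 with equal medians (limma adjusted p = 3.36e-08). Its start changed by 0.52 (limma adjusted p = 0.103), by 0.92 with equal medians (limma adjusted p = 0.00380) and by 1.46 over input (limma adjusted p = 0.000110). Input at the Ddx4 start was 68 reads in serum and 28 in LT 2i.

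In all, 4 of 10 members were called higher and 2 lower at the gene body in LT 2i, where 59.1% of all bodies were called lower, and 9 of the 10 lay above the all-gene median, Stra8 being the exception. With equal medians 7 bodies were called higher and 1 lower, against 35.5% and 26.2% of all bodies. At the start 2 were called higher (Mael and Sycp3), against 8.06% of all starts, and none lower, against 31.2%. With equal medians 7 starts were called higher and none lower, against 23.5% and 16.8% of all starts. Over input, 3 bodies were called higher (Mael, Sycp1 and Slc25a31) and 2 lower (Stra8 and Dazl). The starts called higher over input were 3 (Ddx4, Mael and Sycp3), and none was called lower. Shares of all genes over input are not given, so these counts are a description only. Asz1 and Piwil2 bodies changed by 0.18 and -0.13, and Tex101 by -0.30, all short of the threshold. With equal medians Asz1 rose by 0.88 (limma adjusted p = 6.57e-09) and Piwil2 by 0.58 (limma adjusted p = 1.83e-05). At 24 h limma called Ddx4 alone of the members, at its body (-0.36, SE 0.08 and limma adjusted p = 0.017), against 2.62% of bodies called lower and 0.245% called higher, and this call was lost when any of the 4 serum and 24 h libraries was left out. No member start was called at 24 h by limma, 0 had an unadjusted p under 0.05, and of all starts 0.0281% were called higher and 0.00704% lower.

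**Figure D3:**
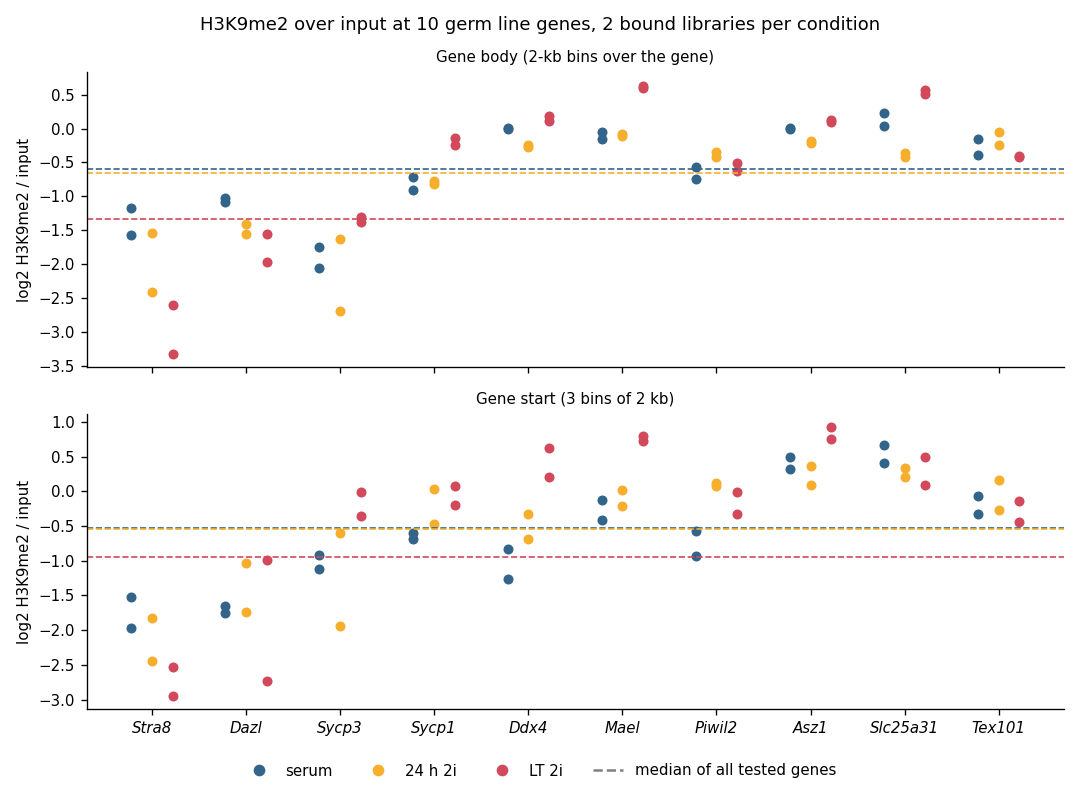
Log2 ratio of H3K9me2-bound to input reads, each scaled to its library total (y axis), over the body and around the start of the 10 genes, with a point per bound library and dashed lines for the median of all tested genes in each condition. Mael moves up to 0.59 and 0.63 at its body in LT 2i while the all-gene median moves down, and Stra8 has the lowest body values in LT 2i.

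Single bins near the starts of Dazl, Stra8 and Mael are given next, and they are not in each case the lowest of the region. For Dazl the bin centred 2.60 kb past the start held 2 and 0 bound reads in serum against 25 input reads, and 2 and 1 in LT 2i against 21. Bins centred at -7.40 to -11.4 kb, before the start, held 28 to 42 bound reads in serum against 11 to 18 input reads. The bin over the Stra8 start, centred at 0.84 kb, held 3 and 2 bound reads in serum and 1 and 1 in LT 2i. The Mael start bin held 16 and 15 bound reads in serum, 12 and 12 at 24 h, and 23 and 26 in LT 2i, against 30, 24 and 21 input reads. With such counts single bins are shown as a description only.

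**Figure D4:**
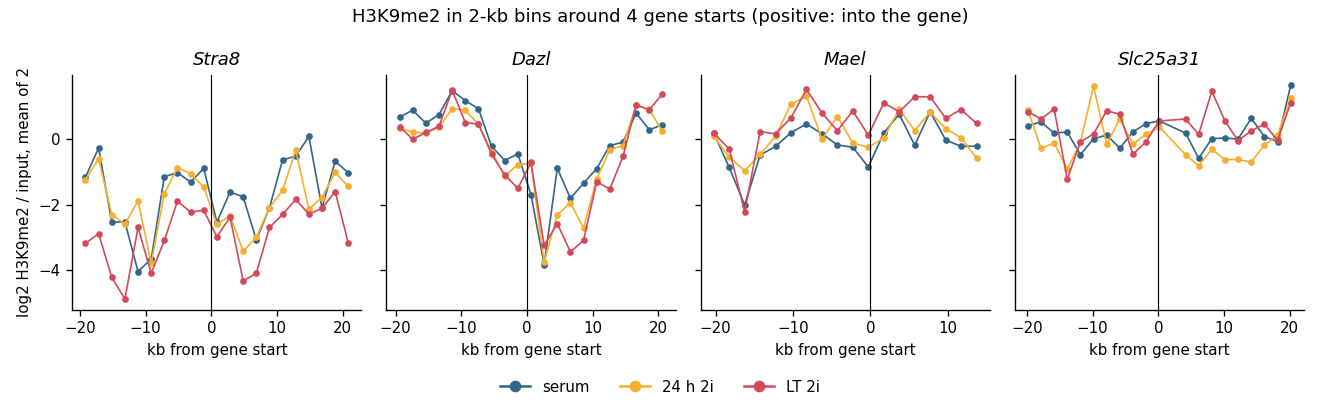
Mean log2 ratio of H3K9me2-bound to input reads (y axis) in 2-kb bins by distance from the gene start in kb (x axis, positive into the gene) for Stra8, Dazl, Mael and Slc25a31, as the mean of 2 bound libraries. Dazl has a dip just past its start in all 3 conditions. The Mael line of LT 2i runs above that of serum in the bins within the gene and in most bins before its start.

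RNA at 72 h and H3K9me2 in LT 2i come from different times and different libraries, so no test links them. DNA methylation at the members was not analysed here, because the bisulfite positions are on build NCBIM37 and the gene coordinates on GRCm38.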

How the data were processed

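RNA-seq (TruSeq RNA v2, which does not mark strand, 50-base single reads) and H3K9me2 ChIP-seq were analysed from the deposited log2 tables, on GRCm38 coordinates. Per the labels' processing notes, the authors used Trim Galore 0.3.5, TopHat2 2.0.11, Bowtie2 and Bismark 0.12.3. The study names Bismark as the mapper of bisulfite reads to NCBIM37, which are not used here. The roles of the other tools, and how and on which strand RNA and ChIP reads were counted, were not given in the sources used here. The authors' log2 RNA values were set to a common 75th percentile, and their log2 ChIP values are per 2-kb bin, with inputs in separate columns. From the values, reads were recovered as whole multiples of 1 read (a feature without reads stands at 0.9). RNA was tested on the deposited log2 values by limma 3.58.1 (R 4.3.3, lmFit and eBayes with trend, 1 fit over 12 libraries, 12306 genes with a value of 0 or more in at least 3 libraries, two-sided). H3K9me2 reads were summed over the bins of a gene or the 3 bins at its start, divided by the reads in bins, and tested on a log2 scale with a prior of 1 read for genes with a mean of 10 or more bound reads. Bins with few input reads are not in the table (members hold 166 bins, Sycp1 37 of 60 in its span and Asz1 21 of 30).

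The members, the gene lists and the tests were chosen with earlier results of these data known. Named were all 10 members, the 3 called genes of each list with the largest change at 72 h, called neighbours within 500 kb, and the 5 genes most like the members' mean. A result that this rule names is not reported here. Symbols were matched to the table, 6 by an older symbol in RefSeq, and 143 of 144 were found. The scripts were tested on simulated data. The labels give replicate numbers without saying what they share. In the data, same-numbered RNA libraries deviated together at 6 h and serum (r = 0.28, 0.16 and 0.54) and at 24 h and serum (0.27, 0.11 and 0.47). Serum replicate 2 was closer to replicate 1 of 6 h (r = 0.25) and of 24 h (0.34), so pairing is not shown for number 2. For RNA, a fit with the replicate number as a block is given beside the results it changes. Alternatives were other filters, scalings, samples, weights and leaving out each library.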

Additional observations from a re-analysis of the deposited data

Results flagged for a closer look

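For 6 of the 9 tested genes the effect of 2i against serum differed between 72 h and 24 h by the limma test of that difference, which is the 72 h minus 24 h contrast, as both times share the serum libraries. Of all tested genes 15.8% were called higher and 15.7% lower in that contrast. The difference was 2.04 for Dazl, 1.81 for Stra8, 1.01 for Sycp1, 1.01 for Slc25a31 and 0.63 for Piwil2, all higher at 72 h, and -1.29 for Sycp3, which was lower at 72 h, on the log2 scale. Dazl and Stra8 kept their call with only the 24 h and 72 h libraries in the fit, and the adjusted p of the other 4 then lay between 0.064 and 0.107.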

How the results depend on the processing

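Of 752 alternative values for the RNA changes of single members, 684 kept direction and side of the threshold, as did 412 of 480 for H3K9me2. The number of members called at 6 h went from 3 to 7 with only the libraries compared, to 6 with the replicate block and to between 2 and 7 with a library left out. With a log2 change of 1 or more also required it was 3 at 24 h and 3 at 72 h, both from 5, and for 72 h against 24 h it went from 6 to 2 with only the libraries compared. Leaving out a library gave 0 to 1 called gene bodies at 24 h, 3 to 6 in LT 2i (3 without serum replicate 1) and 1 to 2 starts in LT 2i. Where 1 bound library of a group was left, it was assumed to vary like the others. The called body at 24 h became 0 over input, with the mean of log2 over bins and with no trend in the prior variance. The 2 called starts in LT 2i became 1 without the filter, 1 with the mean of log2 over bins, 1 with no trend and 7 with equal medians.

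Directions that reversed were of values that were not called, except Dazl at the body. In RNA, Ddx4 for 72 h against 24 h became -0.087 with the span trend removed, and leaving out a library gave -0.074 to 0.21 for Mael at 24 h and -0.66 to 0.053 for Tex101 at 72 h. At the body over input, Mael (0.0060) and Sycp1 (0.021) reversed at 24 h, and Ddx4 (0.15) and Piwil2 (0.081) in LT 2i. With equal medians, Mael became 0.031 at 24 h, and in LT 2i Dazl became 0.14, Ddx4 0.69, Tex101 0.41 and Piwil2 0.58. Leaving out a library gave, at the 24 h body, -0.081 to 0.14 for Tex101, -0.050 to 0.044 for Mael, -0.052 to 0.13 for Piwil2 and -0.78 to 0.27 for Sycp3, and -0.058 to 0.023 for Ddx4 in LT 2i. At the 24 h start, values over input were -0.39 for Stra8, 0.14 for Tex101, -0.18 for Asz1 and -0.27 for Slc25a31, and Stra8 was -0.088 with the mean of log2 over bins. Leaving out a library there gave -0.086 to 0.18 for Slc25a31, -0.054 to 0.38 for Ddx4, -0.12 to 0.50 for Stra8, -0.33 to 0.11 for Tex101, -0.24 to 0.47 for Dazl, -0.0040 to 0.49 for Sycp1 and -0.85 to 0.48 for Sycp3. At the LT 2i start, Slc25a31 was -0.25 over input, Dazl 0.17 and Tex101 0.022 with equal medians, and Dazl -1.09 to 0.64 with a library left out. The cause of these moves was not tested.

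Between 72 h and serum the same-number r was 0.051, 0.30 and 0.40 for numbers 1, 2 and 3, and between 72 h and 24 h it was -0.25, 0.58 and 0.81. Number 1 thus did not pair in these comparisons, while numbers 2 and 3 deviated together. Yet 72 h replicate 2 was closer still to 24 h replicate 1 (r = 0.75). For H3K9me2 r was under 0.1, and 7 of 12 RNA libraries correlated best with their own number. There the block called Mael lower at 72 h against serum (limma adjusted p = 0.019) and against 24 h (0.014), and Asz1 higher at its LT 2i start (0.049). At 6 h and 24 h it changed no member call beyond those of Dazl, Sycp3 and Slc25a31. With the replicate block, members called were 6, 6, 6 and 7 for the 4 RNA comparisons, and all genes called 2569, 8739, 7498 and 5791, against 1920, 7786, 6429 and 3886. Precision weights from recovered reads were added after seeing the data. A coverage minimum for methylation was not run, as methylation was not analysed. Asz1, Tex101 and the start windows of Stra8 and Dazl rest on few reads.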
